A study of Caenorhabditis elegans with 2 samples.

Results

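CEH-62 (R06F6.6) is a homeobox protein of the nematode Caenorhabditis elegans. Its chromatin contacts were mapped by ChIP-seq in whole L4 larvae, the last larval stage, of mixed sex. The strain, OP416, has the genotype unc-119(tm4063) III; wgIs416 and stably carries R06F6.6 fused at its C terminus to a GFP-FLAG tag. This condition was measured in 2 biological replicates, and no other strain, stage or treatment was compared. The unc-119 allele and the transgene were shared by both replicates, and whole larvae mix all tissues, so a site cannot be assigned to a cell type. The sites described here are those in divergent promoters. A site was a member when its summit fell in the promoter windows of protein-coding genes on both strands, where a window runs from 1000 bp before a gene's start to 200 bp after it. All nuclear entries of the list called on the pooled replicates were searched, whatever their rank, and this list holds background as well as peaks. Of 16710 nuclear entries, 560 (3.35%) were members, called both-strand sites below. Another 3902 entries (23.4%) lay in the promoter window of genes on 1 strand only, and 12248 (73.3%) lay in no window. Membership was fixed by position alone, so signal and replicate support were not used to choose the sites.

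A divergent promoter is the stretch between the starts of neighbouring genes that are transcribed away from each other. Such genes share their upstream DNA, so that a factor bound there lies upstream of both, and its position alone does not say which gene, if either, it acts on. In C. elegans the messages of many genes are trans-spliced to a leader, and the annotated start of such a gene model can then lie downstream of where transcription begins. Distances below are to annotated starts. Homeodomains typically bind short AT-rich sites with a TAATTA-like core.

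The sequences of 4 of the strongest both-strand sites are shown first because 3 of them share letters outside any homeodomain core. They are 4 members, on III and IV, of the authors' optimal list, which was chosen by IDR, a measure of replicate consistency. The 201-bp window around each summit, taken from the RefSeq WBcel235 genome, holds no annotated exon. Another optimal-list member on III, eef-1A.1/rfc-4, had a signal just above that of drr-2/set-16 and is not printed. They were picked after signal values were known. The windows are chrIV:654743-654943, chrIII:10759065-10759265, chrIV:4750014-4750214 and chrIII:13643669-13643869, all on the plus strand, with the summit at base 101. Capitals mark matches on either strand to any of 8 strings. These are the homeodomain core TAATTA, the TATA box TATAAA, the repeat GAGAGA, the heat-shock inverted repeat GAANNTTC, a run of T bases written TTTTTTTT, the splice acceptor TTTCAG and, added after the first sequences had been read, the strings CGCTCC and CATACACT. The homeodomain and heat-shock strings read the same on both strands, and a run of T bases can overlap the splice acceptor.
rpl-15/K11H12.8: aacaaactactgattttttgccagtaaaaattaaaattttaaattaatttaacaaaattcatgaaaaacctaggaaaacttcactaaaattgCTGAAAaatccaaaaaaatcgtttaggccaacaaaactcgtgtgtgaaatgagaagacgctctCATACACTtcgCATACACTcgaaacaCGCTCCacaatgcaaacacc
K01G5.10/tasp-1: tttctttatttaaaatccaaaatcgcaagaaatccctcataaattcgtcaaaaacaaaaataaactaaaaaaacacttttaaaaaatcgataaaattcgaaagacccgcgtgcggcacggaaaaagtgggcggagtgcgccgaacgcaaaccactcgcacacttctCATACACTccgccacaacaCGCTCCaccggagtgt
rpl-20/Y17G9B.5: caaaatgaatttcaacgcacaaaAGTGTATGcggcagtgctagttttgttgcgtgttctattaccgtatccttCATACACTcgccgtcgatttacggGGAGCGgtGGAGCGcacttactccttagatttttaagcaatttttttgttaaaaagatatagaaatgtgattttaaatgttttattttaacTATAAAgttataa
drr-2/set-16: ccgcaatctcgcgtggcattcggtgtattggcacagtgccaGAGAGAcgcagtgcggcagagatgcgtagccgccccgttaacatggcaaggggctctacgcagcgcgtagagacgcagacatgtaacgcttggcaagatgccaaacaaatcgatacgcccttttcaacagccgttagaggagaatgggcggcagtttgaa

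CATACACT stood in 2 copies on the plus strand of the rpl-15 window, in 1 copy in the tasp-1 window and in 1 copy on each strand of the rpl-20 window. CGCTCC or its reverse complement stood in the same 3 windows, and no TAATTA stood in any of the 4. The optimal-list members not printed, rps-19/hsr-9, eef-1A.1/rfc-4 and tlf-1/cdk-8, held neither CATACACT nor CGCTCC in their 201-bp windows. A second set shows whole stretches between paired starts. These are the 4 strongest named members on II to V and X whose intergenic stretch is at most 300 bp, holds the summit and contains no annotated exon. Their coordinates are chrIV:13386092-13386323, chrIII:8307442-8307591, chrIII:10218647-10218941 and chrV:1804958-1805177, again on the plus strand, so that the left end of each adjoins the minus-strand gene and the right end the plus-strand gene.
Y62E10A.20/Y62E10A.23: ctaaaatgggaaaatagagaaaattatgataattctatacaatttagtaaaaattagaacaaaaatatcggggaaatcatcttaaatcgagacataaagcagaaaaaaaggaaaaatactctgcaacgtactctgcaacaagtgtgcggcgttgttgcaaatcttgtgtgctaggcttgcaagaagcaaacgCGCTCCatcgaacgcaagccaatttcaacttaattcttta
F10E9.7/F10E9.5: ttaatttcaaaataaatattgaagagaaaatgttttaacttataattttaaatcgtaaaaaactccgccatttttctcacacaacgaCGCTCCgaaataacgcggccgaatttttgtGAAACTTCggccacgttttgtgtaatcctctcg
rde-4/cox-14: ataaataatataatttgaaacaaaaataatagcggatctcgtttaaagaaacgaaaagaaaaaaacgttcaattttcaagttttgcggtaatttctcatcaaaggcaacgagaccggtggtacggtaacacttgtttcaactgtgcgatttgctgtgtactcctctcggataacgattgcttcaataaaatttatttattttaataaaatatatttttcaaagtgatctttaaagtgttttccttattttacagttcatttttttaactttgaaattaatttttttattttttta
hsp-16.2/hsp-16.41: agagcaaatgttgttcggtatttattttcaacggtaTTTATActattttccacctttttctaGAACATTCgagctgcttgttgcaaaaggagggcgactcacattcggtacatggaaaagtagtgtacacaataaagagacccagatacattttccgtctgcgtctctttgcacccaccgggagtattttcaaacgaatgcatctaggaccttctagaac

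The summit fell at base 157 of 232 in the Y62E10A.20/Y62E10A.23 stretch and at base 110 of 150 in the F10E9.7/F10E9.5 stretch. It fell at base 222 of 295 between rde-4 and cox-14 and at base 41 of 220 between hsp-16.2 and hsp-16.41. The hsp-16 stretch, the shared promoter of a pair of small heat-shock protein genes, holds a GAANNTTC string, the inverted repeat of heat-shock elements, beside a TATAAA string read on the minus strand. The CGCTCC string is present in the first 2 of these stretches and the TAATTA string in none. The 201-bp window around the F10E9.7/F10E9.5 summit reaches beyond the printed stretch and does hold TAATTA.

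Both-strand promoter windows covered 2.09 Mb, or 2.09% of the nuclear genome, and held 268 entries per Mb. Windows of genes on 1 strand covered 19.4 Mb and held 201 entries per Mb, and the rest of the genome held 156 per Mb. The density in both-strand windows was thus 1.33 times that in 1-strand windows. Members made up 12.6% of the 4462 entries in promoter windows (95% exact binomial interval 11.6 to 13.6%). The windows formed 2770 separate both-strand stretches, of which 534 (19.3%) held at least 1 member. The 560 members fell on 535 gene pairs: 511 pairs had 1 member, 23 had 2 and 1 pair, lgg-3/rgs-5, had 3. In 526 cases the windows of exactly 2 genes met at the summit, in 32 cases those of 3 genes and in 2 cases those of 4 genes. Neighbouring members of a pair share DNA and are not independent of each other.

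The signal of an entry is the authors' peak value in the deposited list, on a scale that the sources used here do not state, and it was compared only within a list. Both-strand sites had a median signal of 17.7 (95% interval of the median 17.3 to 18.4), against 16.6 (16.4 to 16.7) for 1-strand sites and 16.2 (16.1 to 16.3) for sites outside promoter windows. The intervals of both-strand and 1-strand sites did not overlap. In the replicate 1 list, at as many entries, they did, at 10.9 (10.6 to 11.03) for both-strand and 10.5 (10.4 to 10.6) for 1-strand sites. In the replicate 2 list they were apart, at 10.9 (10.5 to 11.2) for both-strand and 10.03 (9.91 to 10.1) for 1-strand sites. The upper end was set further apart than the middle. The 90th percentile was 27.2 in both-strand sites and 23.7 in 1-strand sites, whereas the highest value was 53.0 in both-strand sites and 101 in 1-strand sites. Among the 1000 strongest nuclear entries, which are 5.98% of all, there were 92 both-strand sites, or 16.4% of the members (13.5 to 19.8%). The same class held 304 of the 1-strand sites, or 7.79% (6.97 to 8.68%), and 604 of the sites outside windows, or 4.93%. The 300 strongest held 36 members (6.43%) and 100 of the 1-strand sites (2.56%). These intervals cover counting error only, and the read depth behind the lists is unknown. Without chromosomes I and III the median was 16.6 (16.3 to 17.4) for both-strand and 16.5 (16.3 to 16.6) for 1-strand sites, and the intervals overlapped.

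The both-strand share of promoter entries was lower in each lower class of rank. Members were 36.8% (16.3 to 61.6%) of the promoter entries of ranks 1 to 27, 26.3% of ranks 28 to 100 and 24.1% of ranks 101 to 300. The share was 21.5% (16.7 to 27.04%) in ranks 301 to 1000 and 16.2% (13.5 to 19.4%) in ranks 1001 to 3000. Below rank 10000 it was 9.31% (7.94 to 10.8%), a range that holds the 9.73% of promoter bases that are on both strands.

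**Figure D1:**
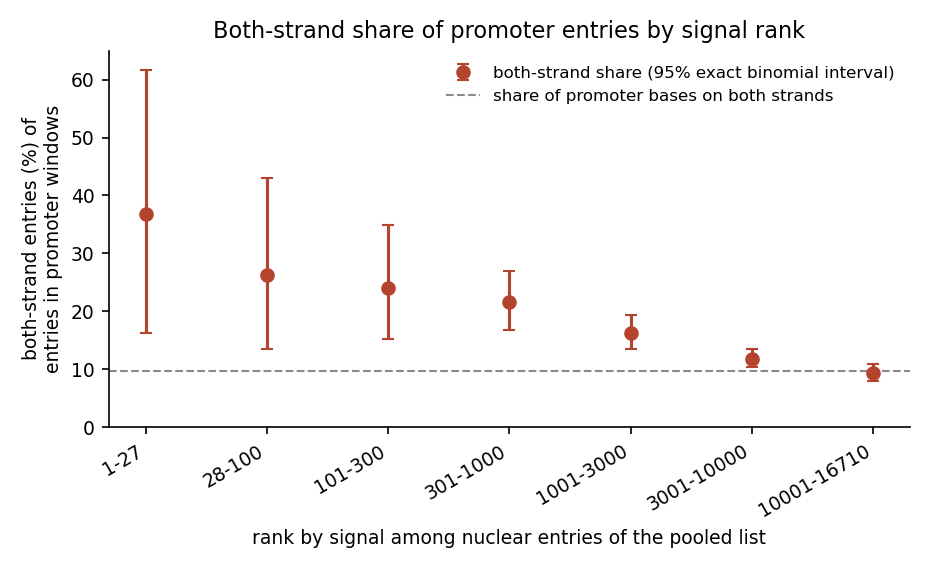
Both-strand entries as a percentage of all entries in promoter windows (y axis), in 7 bins of signal rank among nuclear entries of the pooled list (x axis, strongest left), with 95% exact binomial intervals. The share runs from 36.8% in the top bin to 9.31% in the bottom bin, and the dashed line marks the 9.73% of promoter bases that lie in windows on both strands.

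The optimal list, the subset of the pooled entries that the authors chose by IDR, holds 27 nuclear entries, 0.162% of the total. Of these, 7 were both-strand sites (1.25% of the members, 0.504 to 2.56%), 12 were 1-strand sites (0.308%) and 8 lay outside windows (0.0653%). These are also the 27 strongest nuclear entries of the pooled list, the first class of rank above. They were not all high in each replicate list, as ranks below show. Genes of the ribosomal protein and translation factor lists stood beside 4 of these 7 sites, 16 of the 92 members among the 1000 strongest (17.4%) and 41 of all 560 members (7.32%). They stood beside 0 of the 12 1-strand entries of the optimal list (0 to 26.5%). Over all 1-strand sites it was 35 of 3902 (0.897%), so 0 of 12 tells little. A both-strand stretch was present for 65.4% of cytosolic ribosomal protein genes, against 28.3% of all protein-coding genes. The strongest both-strand site, at chrIV:654843, was between K11H12.8 and rpl-15, a large-subunit ribosomal protein gene. It had a signal of 53.0 in the pooled list, 18.1 in replicate 1 and 28.7 in replicate 2. It ranked 6 among pooled nuclear entries, 340 in replicate 1 and 26 in replicate 2, so it was high in both. The K01G5.10/tasp-1 site at chrIII:10759165, beside the taspase gene, had 50.2 in the pooled list, 11.6 in replicate 1 and 42.8 in replicate 2. This entry was the strongest nuclear entry of replicate 2 and ranked 5265 in replicate 1. The rps-19/hsr-9 site at chrI:9626125, beside a small-subunit ribosomal protein gene and a 53BP1-like gene, had 45.7 in the pooled list, 14.8 in replicate 1 and 30.6 in replicate 2. The rpl-20/Y17G9B.5 site at chrIV:4750114 had 44.2 in the pooled list, 23.5 in replicate 1 and 21.7 in replicate 2, with ranks of 42 and 153 in the replicate lists. It was among the most even of the strong members.

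The remaining 3 members of the optimal list lay on chromosomes III and I. The eef-1A.1/rfc-4 site at chrIII:6972105, between the genes of a translation elongation factor and of a replication factor C subunit, had 43.7 in the pooled list, 16.4 in replicate 1 and 26.0 in replicate 2. The drr-2/set-16 site at chrIII:13643769 had 43.7 in the pooled list, 11.3 in replicate 1 and 29.4 in replicate 2. Its ranks were 5985 in replicate 1 and 23 in replicate 2. Here drr-2 encodes an initiation factor 4H homologue and set-16 an MLL-type histone methyltransferase. The tlf-1/cdk-8 site at chrI:8702061, between the genes of a TBP-like factor and of the Mediator kinase, had 42.6 in the pooled list, 20.3 in replicate 1 and 26.1 in replicate 2. By the poorer of its 2 replicate ranks it was the best placed of all members, at 133 and 56. The next by that measure were rpl-20/Y17G9B.5, Y71H2AM.20/nduc-2, bath-42/prp-8 and rpl-15/K11H12.8. Of these, nduc-2 encodes a complex I subunit and prp-8 a core spliceosome protein.

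The next strongest members showed how far the replicates could differ. The larp-1/wip-1 site, between the genes of an RNA-binding protein and a WASP-interacting protein, had 42.4 in the pooled list and 35.1 in replicate 2, and no replicate 1 summit lay within 150 bp. The clsp-1/eef-2 site, beside claspin and elongation factor 2 genes, had 39.0 in the pooled list, 9.58 in replicate 1 and 24.6 in replicate 2. Its ranks were 10951 in replicate 1 and 70 in replicate 2. The dcaf-13/toe-1 site went the other way, with 35.8 in the pooled list, 23.7 in replicate 1 and 10.3 in replicate 2, at ranks of 38 and 7119 in the replicate lists. A site beside cct-8, a chaperonin subunit gene, and Y55F3AR.2 ranked 3 in replicate 1 at 29.8, had 31.9 in the pooled list and had no matching summit in replicate 2.

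In 557 of the 560 members the nearer starts were in divergent order, with the minus-strand start to the left. In the other 3 (B0464.6/B0464.9, Y50D4A.4/wrb-1 and rec-1/pif-1) the plus-strand start lay to the left of the minus-strand start, a spacing of -198, -55 and -15 bp. The median spacing of divergent starts was 598 bp (566 to 631 bp), with quartiles at 378 and 871 bp and a range of 35 to 1941 bp. The closest starts under a member were ztf-18/F23H11.2, at 35 bp, and the most distant were K02E11.3/K02E11.6, at 1941 bp. Of the 5 closest pairs only F01F1.11/F01F1.3, at 61 bp, carried a site among the 1000 strongest, with a signal of 37.9. None of the 5 most distant pairs did.

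Members were densest where starts were at least 200 and under 400 bp apart, at 356 per Mb of such promoter (117 members). They thinned to 171 per Mb where starts were 1000 bp or more apart (95 members). These densities are given without intervals. Between these, the density was 334 per Mb from 400 bp, 265 per Mb from 600 bp and 255 per Mb from 800 bp, in classes of 200 bp, and it was 311 per Mb under 200 bp. Only the widest class fell below the 201 entries per Mb of 1-strand windows. The share among the 1000 strongest had the same high point, 26.5% (18.8 to 35.5%) at 200 to 400 bp, against 6.32% (2.35 to 13.2%) at 1000 bp or more. The interval at 200 to 400 bp overlapped those of all other classes under 1000 bp, so only the widest class was apart from it. The median signal was 19.5 (18.2 to 21.9) at 200 to 400 bp and 16.3 (15.8 to 16.8) at 1000 bp or more, and these intervals did not overlap. Across members, signal and spacing had a Spearman correlation of -0.20 (n = 557 sites, some of which share a pair), given as a description.

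**Figure D2:**
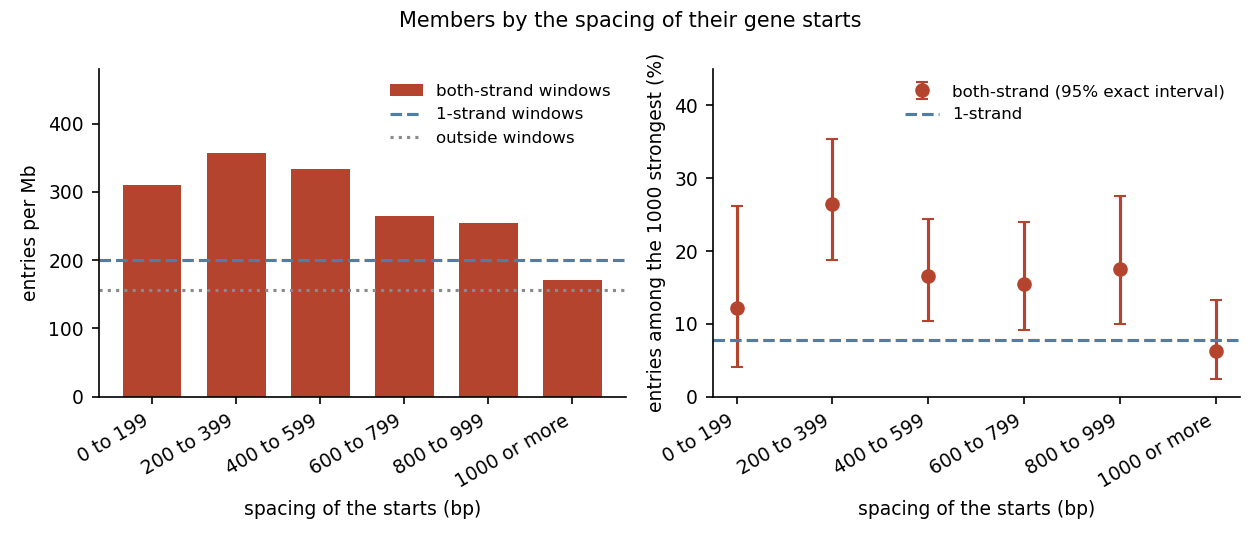
Left, both-strand entries per Mb of both-strand window (y axis) by the spacing of the nearest starts in bp (x axis), with dashed and dotted lines for 1-strand windows and for the genome outside windows. Right, the percentage of members among the 1000 strongest nuclear entries, with 95% exact binomial intervals and the 1-strand value dashed. The highest value lies in the class from 200 bp in both panels. Its interval on the right overlaps those of all other classes under 1000 bp.

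Summits lay between the starts in 434 members (77.5%, 73.8 to 80.9%), against 68.3% of both-strand window bases. With the replicate lists, at as many entries, this share was 70.7% in replicate 1, close to that of the bases, and 76.2% in replicate 2. Of the other members, 68 lay downstream of the plus-strand start, 59 downstream of the minus-strand start and 1 of these downstream of both. The nearer start was on the plus strand in 289 and on the minus strand in 269, with 2 ties, so neither strand was favoured by more than this count. The median distance was 152 bp (138 to 168 bp) to the nearer start and 475 bp (447 to 506 bp) to the farther one. In 1-strand sites the distance to the nearest start was 356 bp (344 to 371 bp). That contrast follows the windows themselves: the nearest start lay a median of 156 bp away over both-strand window bases and 402 bp away over 1-strand window bases. Likewise 64.8% of members lay within 200 bp of a start, against 62.2% of both-strand bases. Members 400 bp or more from either start were the weakest, with 3 of 60 among the 1000 strongest (interval 1.04 to 13.9%). Within 100 bp of a start it was 30 of 176 (17.05%, 11.8 to 23.4%).

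**Figure D3:**
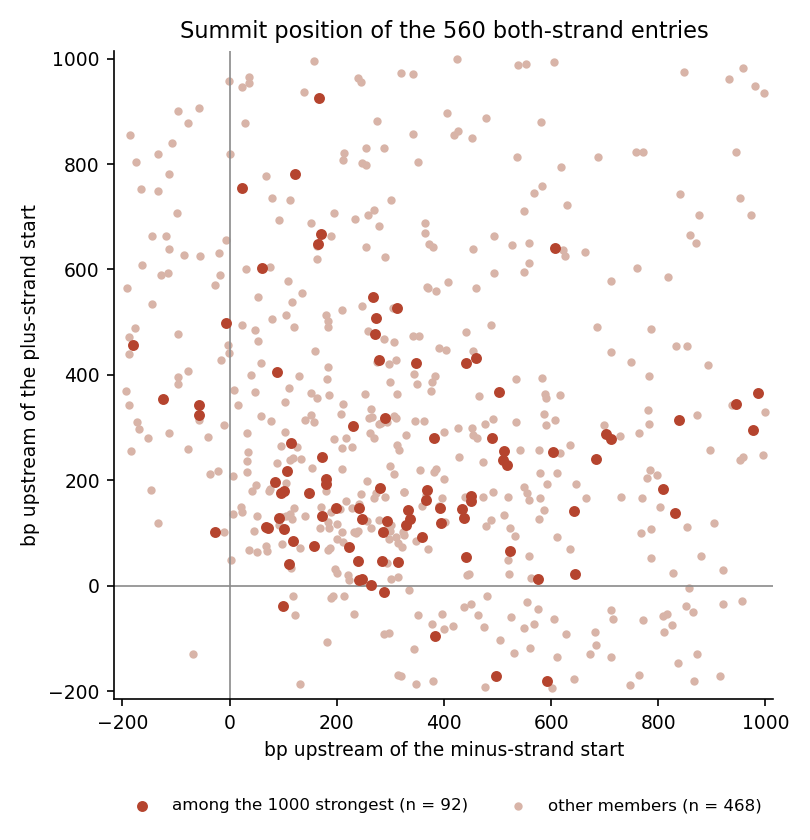
Each point is 1 of the 560 both-strand entries, placed by its summit's distance in bp upstream of the minus-strand start (x axis) and of the plus-strand start (y axis); negative values are downstream, and grey lines mark the starts. The 92 members among the 1000 strongest (dark) lie mostly between the starts (81 of 92) and mostly within 400 bp of a start (89 of 92).

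Members were most frequent on chromosomes III and I. Density per Mb of both-strand window was 416 on III and 356 on I, against 271 and 242 per Mb of 1-strand window on the same chromosomes. It was 262 per Mb on IV, against 208 per Mb of 1-strand window, and 246 per Mb on II, against 188 per Mb of 1-strand window. On V the order turned, with 167 per Mb of both-strand window and 174 per Mb of 1-strand window. On X it was 146 per Mb of both-strand window and 156 per Mb of 1-strand window. Strong members were concentrated further. Chromosome I held 37 and chromosome III 29 of the 92 members among the 1000 strongest, 28.9% and 21.5% of the members there, against 9.82% and 9.45% of 1-strand sites. On IV the shares were 12.5% of both-strand and 6.74% of 1-strand sites. On II they were 8.70% of both-strand and 9.78% of 1-strand sites, and on V 6.52% of both-strand and 5.61% of 1-strand sites. None of the 17 members on X was among the 1000 strongest, which allows a share of up to 17.6% by 3 counts of the total and up to 19.5% by the exact interval. On chromosomes I and III together the median was 18.9 (18.1 to 20.2) for both-strand and 16.8 (16.5 to 17.1) for 1-strand sites. On II, IV, V and X together the share among the 1000 strongest was 8.75% (5.80 to 12.6%) of both-strand and 6.85% (5.91 to 7.90%) of 1-strand sites.

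**Figure D4:**
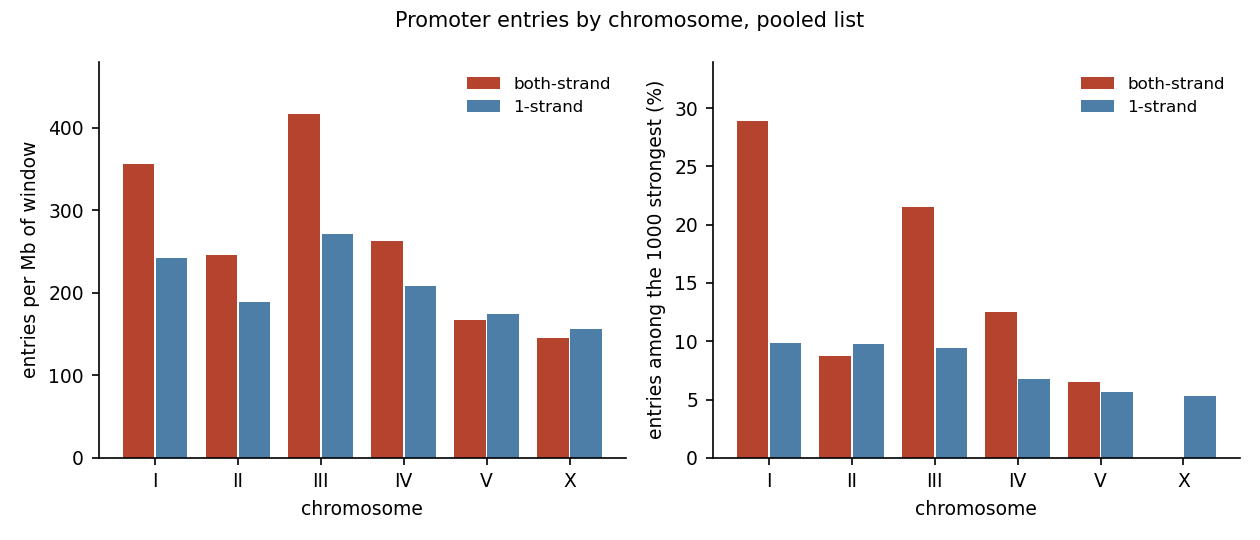
Entries per Mb of promoter window (left) and percentage of entries among the 1000 strongest nuclear entries (right) by chromosome (x axis), both-strand left of 1-strand in each pair of bars. The excess in both-strand windows stands out on I and III, with 28.9% and 21.5% among the 1000 strongest, and no both-strand entry on X is among them.

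In the replicate lists, called on each replicate against the same control, the both-strand excess was present in both and larger in replicate 2. With as many entries as the pooled list, replicate 1 had 478 both-strand entries and 228 per Mb, against 194 per Mb of 1-strand window, a ratio of 1.18. Replicate 2 had 652 and 312 per Mb, against 202 per Mb, a ratio of 1.54. Among each list's own 1000 strongest the ratio was 2.30 in replicate 1 and 3.51 in replicate 2, and the 100 strongest held 10 both-strand entries in replicate 1 and 21 in replicate 2. The direction was therefore the same in the 2 replicates while the size was not.

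A summit in both replicate lists within 150 bp was found for 199 members (35.5%, 31.6 to 39.7%), against 1181 of the 1-strand sites (30.3%, 28.8 to 31.7%). Over all nuclear entries this share was 28.5%. The members' share in replicate 2 was 70.4% (66.4 to 74.1%), against 60.5% of 1-strand sites, and in replicate 1 it was 59.1% (54.9 to 63.2%), against 62.05%. Only the replicate 2 intervals were apart. No matching summit in either list was found for 34 members (6.07%), against 7.69% of 1-strand sites and 8.55% of all nuclear entries. The median signal of these 34 members was 14.5, against 22.4 for members with both. In 1-strand sites the medians were 14.6 with neither and 19.5 with both. Between the 2 replicates the members' signals had a Spearman correlation of 0.04 (n = 199 sites with both values). In 1-strand sites it was also 0.04 (n = 1181 sites), so the order of signal within matched sites was barely shared in either class. The pooled list is made from the reads of both replicates and is no separate measurement.

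Of 19973 protein-coding genes, 5656 (28.3%) had a window that met one on the other strand, and 1104 of these (19.5%, 18.5 to 20.6%) stood beside a member. Lists of genes by name were set against this share. Genes of cytosolic ribosomal proteins stood beside members in 24 of 53 cases (45.3%, 31.6 to 59.6%), and 13 of them (24.5%) beside a member among the 1000 strongest, where the share over all genes was 3.43%. Their sites had a median signal of 24.3 (18.1 to 28.9). In 2 members both genes were ribosomal. The rps-10/rpl-24.1 site had 26.5 in the pooled list and 20.004 in replicate 2, with no replicate 1 summit. The rps-14/rpl-36 site had 25.6 in the pooled list, 10.7 in replicate 1 and 15.8 in replicate 2. A site between sec-61.A, a translocon subunit gene, and rps-18 had 28.9 in the pooled list, 13.2 in replicate 1 and 13.01 in replicate 2. The share for these genes was 37.7% with the replicate 1 list and 56.6% with the replicate 2 list at equal numbers of entries, above those lists' shares over all genes of 16.3% and 22.2%.

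Other lists of basic cell machinery lay above the share over all genes. The lists overlap in their sites, so they are not separate observations. The eef-1A.1/rfc-4 site, for example, counts for translation factors and for DNA replication and repair. A list matched by name to mitochondrial import and prohibitin genes and to the dnj genes, which encode DnaJ-type co-chaperones of several cell compartments, had 16 of 25 (64.0%, 42.5 to 82.0%). Of these, dnj genes gave 9 of 14 (35.1 to 87.2%) and the other genes of the list 7 of 11 (30.8 to 89.1%). With the replicate lists the other genes gave 4 of 11 each, with intervals of 10.9 to 69.2% that reach those lists' shares over all genes. General transcription genes had 15 of 28 (53.6%, 33.9 to 72.5%) and DNA replication and repair genes 19 of 38 (interval 33.4 to 66.6%). Heat-shock and chaperone genes had 10 of 24 (41.7%), translation factors and tRNA synthetases 15 of 38 (39.5%), vesicle traffic genes 28 of 71 (39.4%) and mitochondrial ribosomal protein genes 11 of 30 (36.7%). Vesicle traffic genes reached 25.4% (15.8 to 37.1%) with the replicate 1 list, and with the replicate 2 list mitochondrial ribosomal protein genes reached 23.3% (9.93 to 42.3%) and translation factors and tRNA synthetases 34.2% (19.6 to 51.4%). These intervals hold the share over all genes in that list. Nuclear pore and transport genes, at 9 of 25 (36.0%, 17.97 to 57.5%), and splicing genes, at 12 of 35 (34.3%, 19.1 to 52.2%), had intervals that reach the share over all genes. So did chromatin regulators (8 of 25, 32.0%), oxidative phosphorylation genes (12 of 45, 26.7%), germline granule and small RNA genes (14 of 49, 28.6%) and proteasome and ubiquitin genes (12 of 58, 20.7%). The replicates differed for some of these. With the replicate 2 list, chromatin regulators had 14 of 25 (34.9 to 75.6%), proteasome and ubiquitin genes 36.2% (23.99 to 49.9%), germline granule and small RNA genes 36.7% (23.4 to 51.7%) and splicing genes an interval of 23.9 to 57.9%, all above the 22.2% over all genes in that list. With the replicate 1 list, splicing genes (16.9 to 49.3%) lay just above its 16.3% over all genes, and the intervals of the other 3 lists reached it. Cell cycle and mitosis genes had 17 of 53 (32.1%, 19.9 to 46.3%), with 16.98% in the replicate 1 list and 41.5% in the replicate 2 list.

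Strong examples in these lists were spread over many functions. The hsp-60 site at chrIII:1619094, beside the mitochondrial chaperonin gene, had 29.3 in the pooled list, 12.9 in replicate 1 and 16.7 in replicate 2. The timm-23 site, beside an inner-membrane import channel gene, had 26.7 in the pooled list and 18.3 in replicate 1, and no summit in replicate 2. The pqn-59/taf-4 site, beside a TFIID subunit gene, had 28.8 in the pooled list, 9.43 in replicate 1 and 19.8 in replicate 2. Chaperones were also represented by the pfd-1 site, beside a prefoldin subunit gene, with 40.6 in the pooled list, 13.3 in replicate 1 and 27.7 in replicate 2. The lin-53/nra-2 site, beside an RbAp48-type histone-binding protein gene, had 32.5 in the pooled list, 8.91 in replicate 1 and 21.9 in replicate 2. The vps-51/lin-35 site, beside the Rb homologue gene, had 25.1 in the pooled list, 15.8 in replicate 1 and 7.09 in replicate 2. Germline and small RNA genes were represented by the rde-4/cox-14 site, between a dsRNA-binding RNAi factor and a cytochrome oxidase assembly factor, with 29.2 in the pooled list and 17.98 in replicate 2 only.

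Members between genes of the same list numbered 14. Beside the 2 ribosomal ones these were 4 chemoreceptor pairs, 3 C-type lectin and innate immunity pairs, and 1 pair each of general transcription (tlf-1/cdk-8), splicing, DNA repair, heat-shock and nuclear hormone receptor genes. The chemoreceptor pairs had 13.5 to 16.3 in the pooled list, the C-type lectin and innate immunity pairs 15.1 to 21.6 and the nhr-263/nhr-148 pair 16.1. The rsp-2/rsp-1 site, between SR splicing factor genes, had 22.4 in the pooled list, 7.13 in replicate 1 and 15.02 in replicate 2. The msh-2/hus-1 site, between a mismatch repair gene and a DNA damage checkpoint gene, had 18.5 in the pooled list and 10.2 in replicate 2 only. The hsp-16.2/hsp-16.41 site, at chrV:1804998, had 22.6 in the pooled list, 9.58 in replicate 1 and 11.9 in replicate 2. The hsp-16 genes form a family of similar copies, and how reads that match several copies were counted is not given in the sources used here.

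Gene families tied to the environment and to single tissues lay below the share over all genes. Chemoreceptor genes, which are mostly expressed in sensory neurons, stood beside members in 23 of 297 cases (7.74%, 4.97 to 11.4%). C-type lectin and innate immunity genes had 15 of 134 (11.2%, 6.40 to 17.8%) and collagen and cuticle genes 6 of 79 (7.59%, 2.84 to 15.8%). Cytochrome P450, transferase and detoxification genes had 7 of 66 (10.6%, 4.37 to 20.6%), with an interval that reaches the share over all genes. With the replicate 1 list the C-type lectin and innate immunity interval (6.98 to 18.7%) also held that list's share over all genes, 16.3%. With the replicate 2 list it was 7.57 to 19.5%, below 22.2% over all genes. Chemoreceptor, collagen and histone intervals lay below the share over all genes with each replicate list. Histone genes had 1 of 67 (1.49%, 0.0378 to 8.04%), and that was htz-1, the H2A.Z gene, at a signal of 13.4 in the pooled list and 16.9 in replicate 2. Histone and chemoreceptor genes form large families, and the similarity of their copies was not measured here. Homeobox genes, the family of ceh-62 itself, had 0 of 12, which allows a share of up to 25% by 3 counts of the total and up to 26.5% by the exact interval, and 1 of 12 with the replicate 1 list and 3 of 12 with the replicate 2 list. Nuclear hormone receptors had 8 of 46 (17.4%), other transcription factors 5 of 36 (13.9%), neuropeptide and insulin genes 1 of 17 (5.88%) and sperm genes 5 of 47 (10.6%), all with intervals that reach the share over all genes. Kinases and phosphatases (4 of 18, 22.2%) and cytoskeleton genes (3 of 15) were close to that share. The strongest site of the collagen and cuticle list and the only site of the neuropeptide and insulin list had a partner gene of another kind. The col-38/rpl-5 site, between a collagen and a ribosomal protein gene, had 29.2 in the pooled list, 17.4 in replicate 1 and 17.4 in replicate 2. The nlp-4/exos-3 site, between a neuropeptide-like gene and an RNA exosome gene, had 34.9 in the pooled list, 19.97 in replicate 1 and 11.4 in replicate 2. Counted over every gene of a list, 18.4% of all protein-coding genes stood beside a 1-strand entry. That share was 12.5% of chemoreceptor, 11.4% of C-type lectin and innate immunity and 6.10% of histone genes, so these lists were low there too. Collagen and cuticle genes, at 17.3%, and cytochrome P450, transferase and detoxification genes, at 20.5%, were near the share over all genes. The lists differ in chromosome and in the length of shared window, and the part of either in these shares was not tested.

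**Figure D5:**
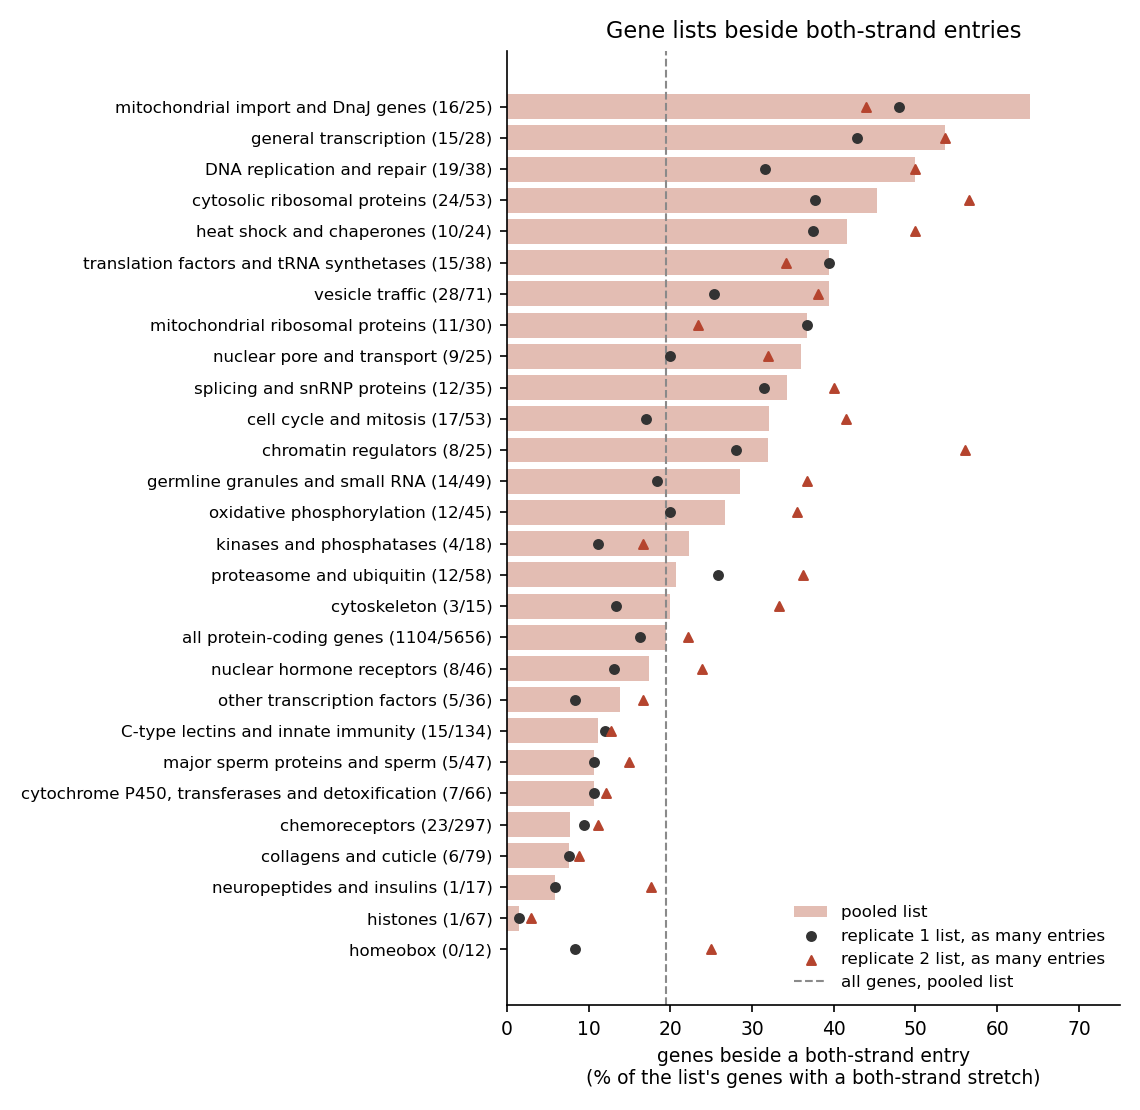
Percentage of each list's genes with a both-strand stretch that stood beside a both-strand entry (x axis), for 27 gene lists and for all protein-coding genes (rows, with counts in the pooled list in parentheses); bars are the pooled list, circles and triangles the replicate lists cut to as many entries, and the dashed line the 19.5% over all genes. Ribosomal and general transcription genes, and the list of mitochondrial import and dnj genes, lie right of the line with all 3 lists, and chemoreceptors, collagens and histones left of it.

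The 201-bp windows of members had a median GC content of 33.8% (32.8 to 34.3%), against 32.3% (32.3 to 32.8%) for 1-strand sites. Windows around every 10th base of the promoter territory had 34.8% in both-strand and 34.8% in 1-strand territory, so entries of both classes sat at slightly less GC than their surroundings. Within the members GC went with signal, with a Spearman correlation of 0.20 (n = 560 sites), and within 1-strand sites it was 0.02 (n = 3902 sites). At 40 to 45% GC, 20 of 60 members (33.3%, 21.7 to 46.7%) were among the 1000 strongest, against 29 of 295 1-strand sites (9.83%, 6.68 to 13.8%). Below 30% GC it was 17 of 144 members (11.8%, 7.03 to 18.2%) and 90 of 1358 1-strand sites (6.63%, 5.36 to 8.08%). GC content also affects how DNA is amplified and sequenced, and its part in the signal was not tested.

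The homeodomain-like string TAATTA stood in 11.4% of member windows (8.91 to 14.4%), in 13.04% of 1-strand windows (12.003 to 14.1%) and in 11.4% of windows over all nuclear entries. Promoter territory as a whole had it in 10.5% of both-strand and 10.2% of 1-strand windows of that length. Of the 92 members among the 1000 strongest, 8 had it (8.70%, 3.83 to 16.4%). TTTTTTTT stood in 23.2% of member windows (19.8 to 26.9%) and 29.4% of 1-strand windows (27.99 to 30.9%), and the territories held it in 19.2% of both-strand and 22.2% of 1-strand windows. The heat-shock string stood in 16.6% of member and 13.6% of 1-strand windows, and the TATA string in 26.6% of member and 27.7% of 1-strand windows. GAGAGA stood in 13.2% of member and 11.8% of 1-strand windows, and the splice acceptor string in 36.6% of member and 39.5% of 1-strand windows. The intervals overlapped for each of these 4 strings. CGCTCC, chosen after sequences had been read, stood in 41 member windows (7.32%, 5.30 to 9.80%) and in 3.13% of 1-strand windows, against 4.22% of windows in both-strand and 2.88% in 1-strand territory. Those counts include the windows in which the string was first seen. Without the 8 printed sites, 36 of 552 members held it (6.52%, 4.61 to 8.91%). Among the 1000 strongest it was then in 8 of 85 members (9.41%, 4.15 to 17.7%), against 22 of the 304 such 1-strand sites (7.24%, 4.59 to 10.8%), and the intervals overlapped. CATACACT stood in 5 members, at rpl-15, tasp-1, rpl-20, ifet-1/rps-1 and str-180/cest-28, of which the first 4 were among the 1000 strongest. Without the printed sites, 2 of 552 members held it (0.362%). Over all ranks CATACACT stood in 10 of the 1-strand sites (0.256%), 49 of the sites outside windows (0.400%) and 0.383% of all nuclear entries. Members without the printed sites were thus close to the share over all entries. Among the 1000 strongest it stood in 0 of the 304 1-strand sites (0 to 1.21%) and 4 of the 604 sites outside windows (0.662%). The territories held it in 0.341% of both-strand and 0.407% of 1-strand windows. A match is a match of letters and does not say that a factor binds there.

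The window edge decided a few memberships. The members nearest the edge, each within 3 bp of it, were cln-3.1/str-116, C55B6.5/ZK867.2 and C04G2.5/dis-3, with signals of 14.6, 14.2 and 13.3. The nearest entries that missed the second window, also by at most 3 bp, lay at smc-5/pho-12, F33H2.8/F33H2.3 and cgr-1/C18B2.3, with 16.1, 14.99 and 21.6. At the summit, the annotation was intergenic in 395 members (70.5%, 66.6 to 74.3%), an exon in 110 (19.6%), an intron in 38 (6.79%) and a non-coding gene only in 17 (3.04%). In 1-strand sites it was intergenic in 59.7% (58.1 to 61.2%), an exon in 25.01% and an intron in 13.1%. The shares of both classes depend on which bases their windows cover.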

How the data were processed

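Lists on the ce11 build were used, as the authors deposited them: peaks-and-background lists for replicate 1, for replicate 2 and for the pooled replicates, and the optimal list, which per the file inventories was derived from them by IDR, a measure of replicate consistency. The signal in column 7 is the authors' deposited peak signal. Its scale, how reads were aligned and peaks called, the consistency threshold and the number of reads are not given in the labels or inventories. Per the labels' protocols chromatin was sheared by sonication. Replicates were called against the same control, so the lists are not independent of it. Lists on the older build were not used here.

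Gene starts were the 5′ ends of protein-coding genes in Ensembl 115 (WBcel235), and sequences came from the RefSeq WBcel235 genome, whose chromosome names and lengths fit the lists. Windows, nearest starts, GC content and letter matches were computed with Python 3.11.15, numpy 2.4.6 and pandas 2.3.3. Shares have exact Clopper-Pearson intervals from scipy 1.17.1 and medians have intervals from order statistics, both at 95%; they cover counting error only, since neighbouring sites are not independent. No hypothesis test was run, because there is 1 condition. Assignment to windows was tested on simulated data. The optimal members, the 20 strongest, up to 3 strongest per gene list, pairs with both genes in a list, the 5 closest and 5 most distant starts, the 5 best placed in both replicates and the 3 entries on each side of the window edge could be named. The members and the gene lists were chosen with earlier results of these data known, and the name patterns of the gene lists were corrected after a first look at which genes they matched.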

Additional observations from a re-analysis of the deposited data

How the results depend on the processing

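With a promoter window of 500 bp upstream to 200 bp downstream there were 300 both-strand entries, 10.2% of promoter entries, at 379 per Mb and 1.77 times the 1-strand density. Their median signal was 18.8, 2.14 above that of 1-strand entries, 21% were among the 1000 strongest and 40% had a summit in both replicate lists. The median spacing was 389 bp, and 143 entries, against 250 in the wider window, stood beside a gene of any list; 13 of the 27 list counts stayed within 1.5 times. With a window ending at the start the both-strand share of promoter entries was 11.4% and the density 301 per Mb. The share was 11.4% with the starts of all transcripts and 10.01% when only summits between the starts counted.

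Without chromosomes I and III, an alternative added after seeing the data, the median signal was 16.6, the difference from 1-strand entries 0.147, the density ratio 1.16 and the share among the 1000 strongest 8.75%. Leaving out 1 replicate at a time, with as many entries of the other replicate's list, gave 478 to 652 both-strand entries, shares of promoter entries of 11.3 to 14.2%, densities of 228 to 312 per Mb, density ratios of 1.18 to 1.54, median spacings of 578 to 648 bp and summits between the starts in 70.7 to 76.2%. The share among the list's own 1000 strongest was 12.97 to 17.3%. The lower value in each of these ranges came from replicate 1 alone, except for the spacing, where it came from replicate 2 alone. Support in both replicates was 49.6% when an overlap of at least 1 bp counted and 15.2% when summits had to lie within 50 bp. By construction the share was 6.43% among the 300 strongest and 34.8% among the 3000 strongest. Median GC was 32.7% with 50 bp to each side. No value changed sign under these alternatives, and the causes were not tested. By single chromosome, the both-strand median signal lay above the 1-strand median on I, II and III. It lay slightly below on IV (16.53 against 16.59), V (16.38 against 16.40) and X (16.47 against 16.53). The intervals overlapped on II, IV, V and X. Because the read depth is unknown, absence from a list cannot be told from low depth.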
